A study of Mus musculus with 16 samples.

Results

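The genes described here are 10 transcriptional regulators of fat oxidation and mitochondrial content, chosen by name as a pathway, with earlier results of these data known: the coactivators Ppargc1a and Ppargc1b, the nuclear receptors Ppara, Ppard, Rxra, Esrra and Esrrg, and the mitochondrial biogenesis factors Nrf1, Tfam and Gabpa. They are 10 of the 11631 genes of the deposited gene table, and 22 of the 23055 transcripts of the transcript table are theirs. Poly(A) RNA was sequenced from primary adult cardiomyocytes isolated from mouse hearts and exposed for 24 h either to linagliptin, an inhibitor of the enzyme dipeptidyl peptidase-4 given for type 2 diabetes, at 9 nmol/L, or to 0.1% DMSO as vehicle. The DM-HFD cells came from C57BL/6 mice that ate a high fat diet for 26 weeks and received the beta-cell toxin streptozotocin after 12 weeks of it, with 3 libraries under linagliptin and 3 under vehicle. The control cells came from mice of the same strain about 8 weeks old, with 5 libraries under linagliptin and 5 under vehicle. The diet, the toxin and the age differed together between DM-HFD and control mice, so that their parts in any difference cannot be told apart. The labels do not say whether the libraries of a group came from separate mice, so the p-values measure only the spread between these libraries, which may be technical.

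PGC-1alpha and PGC-1beta, the products of Ppargc1a and Ppargc1b, do not bind DNA themselves. They are recruited to promoters by transcription factors and raise the output of the genes those factors control, and in the heart they are known for setting the capacity to burn fatty acids. The peroxisome proliferator-activated receptors, PPARalpha (Ppara) and PPARdelta (Ppard), are nuclear receptors that sense fatty acids and bind DNA as a pair with the retinoid X receptor RXRalpha (Rxra), switching on genes of fatty acid uptake and beta-oxidation. The estrogen-related receptors, ERRalpha (Esrra) and ERRgamma (Esrrg), are orphan receptors that bind extended half-sites at genes of the citric acid cycle and the respiratory chain. Nuclear respiratory factor 1 (Nrf1, not the stress regulator Nfe2l1 that shares the abbreviation) and GA-binding protein alpha (Gabpa, the DNA-binding subunit of NRF-2) drive nuclear genes for mitochondrial proteins, among them Tfam, which encodes the factor that packages mitochondrial DNA and starts its transcription.

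The promoters of 3 of these genes are given because a motif of a factor in the same network lies within each. The sequences are RefSeq's on GRCm38.p6, 300 bases each from 250 before to 50 after the annotated start, and 9 of the 10 genes matched the promoter table with 14 promoters. They were searched on both strands for the cAMP response element TGACGTCA, the ERR extended half-site TNAAGGTCA, the PPAR-RXR direct repeat (the half-site AGGTCA, any base and AGGTCA again), the NRF-1 site (GCGCA, any base and GCGC) and the GABP core CCGGAAG. Capitals mark the matches, and each sequence is written 5′ to 3′ along the gene's own strand.
Tfam: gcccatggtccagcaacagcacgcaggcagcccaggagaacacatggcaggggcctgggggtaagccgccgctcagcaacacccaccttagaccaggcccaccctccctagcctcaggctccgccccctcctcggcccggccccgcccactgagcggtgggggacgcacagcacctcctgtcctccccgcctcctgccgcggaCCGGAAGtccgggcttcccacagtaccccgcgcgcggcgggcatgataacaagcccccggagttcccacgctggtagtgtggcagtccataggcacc
Gabpa: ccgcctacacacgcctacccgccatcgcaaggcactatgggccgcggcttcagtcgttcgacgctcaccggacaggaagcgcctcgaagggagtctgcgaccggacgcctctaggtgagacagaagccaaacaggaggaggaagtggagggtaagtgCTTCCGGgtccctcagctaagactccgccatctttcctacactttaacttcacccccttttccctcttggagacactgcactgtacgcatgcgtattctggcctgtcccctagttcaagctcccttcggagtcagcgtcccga
Ppara: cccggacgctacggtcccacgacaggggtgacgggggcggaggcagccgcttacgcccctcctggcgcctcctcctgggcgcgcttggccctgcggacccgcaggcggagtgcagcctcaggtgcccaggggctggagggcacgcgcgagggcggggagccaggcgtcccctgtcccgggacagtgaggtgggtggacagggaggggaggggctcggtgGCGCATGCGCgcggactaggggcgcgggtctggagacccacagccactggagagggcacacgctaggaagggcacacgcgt

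The Tfam promoter, at chr10:71237995-71238294 on the minus strand, held the GABP core with its first base 47 bases before the start. The Gabpa promoter, at chr16:84834874-84835173 on the plus strand, held the same core on the opposite strand, 93 bases before the start. The Ppara promoter, at chr15:85735526-85735825 on the plus strand, held the NRF-1 letters on both strands, 31 bases before the start. Of 32851 promoters of the same length, 8.86% held the GABP core, 4.6% the NRF-1 site, 1.79% the cAMP response element, 1.28% the ERR half-site and 0.0396% the PPAR-RXR repeat. A match describes letters in a window, not a bound site. The other 11 promoters of the 9 genes held no match to these letters. The Ppargc1a promoter among them, at chr5:51567676-51567975 on the minus strand, lies upstream of the start of Ppargc1a-203 at 51553922. That is the only Ppargc1a transcript listed, and the promoter at its own start was not searched. 

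All values are FPKM, sequenced fragments scaled to the length of the transcript and to the size of the library, so that levels can be compared between genes. A level is relative to the rest of its library, so comparisons between libraries also depend on what each library holds and on the scaling. Other scalings are therefore given below. FPKM carries no read count, so the depth behind each value is unknown and no counting interval can be given. The sum of FPKM over all genes was 326762 to 392191 in DM-HFD linagliptin libraries and 383621 to 405457 in DM-HFD vehicle libraries, against 319929 to 340389 in control linagliptin libraries and 315152 to 344908 in control vehicle libraries. The 13 mRNAs encoded by mitochondrial DNA took 26.5 to 41.4% of that sum in DM-HFD linagliptin libraries and 44.1 to 52.2% in DM-HFD vehicle libraries, against 33.1 to 40.0% in all control libraries.

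DM-HFD linagliptin replicate 1 stood apart from its group in lying closer to the controls. Over all genes its log2 values correlated with the other 2 libraries of its group at a mean Pearson's r of 0.933 and with the control linagliptin libraries at 0.972. The other 2 libraries of the group lay closer to their own group, replicate 1 included, than to control linagliptin. Their mean r within the group was 0.937 and 0.962, against 0.898 and 0.933 with control linagliptin. By its mean r within the group, replicate 2 (0.937) was nearly as far from the others as replicate 1. In the remaining groups the mean r of a library with its own group ranged from 0.969 to 0.986. Results in which DM-HFD linagliptin replicate 1 changed a call or a direction are therefore given with and without it.

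The cells carried the markers of their label, since the 12 cardiomyocyte markers summed to 5926 to 10614 FPKM in DM-HFD libraries and 8021 to 9324 FPKM in control libraries, but they were not pure. The 12 endothelial markers summed to 64.5 to 239 FPKM under linagliptin and 89.3 to 152 FPKM under vehicle in DM-HFD libraries, against 164 to 273 FPKM and 171 to 214 FPKM in control libraries. The macrophage markers, of which 10 of 12 could be measured, summed to 65.2 to 263 FPKM under linagliptin and 69.2 to 149.5 FPKM under vehicle in DM-HFD libraries, against 57.9 to 73.2 FPKM and 56.2 to 80.9 FPKM in control libraries. The other lists summed, in DM-HFD against control libraries, to 41.0 to 153 against 74.9 to 110 FPKM for smooth muscle and pericyte markers, 13.3 to 108 against 28.3 to 42.7 FPKM for fibroblast markers, and 0.121 to 14.8 against 0 to 1.53 FPKM for the 3 of 6 adipocyte markers that could be measured. Within the DM-HFD linagliptin group, replicate 2 had the lowest cardiomyocyte sum (5926 FPKM) and the highest macrophage (263), fibroblast (108) and adipocyte (14.8) sums. Replicate 1 had the lowest macrophage sum of that group, at 65.2 FPKM. Cfd, Adipoq, Cidec and the macrophage gene Fcgr1 were the only markers listed at 0 in any library.

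On GRCm38 the genes that the results turn on are Ppargc1a at chr5:51454250-51567726 and Tfam at chr10:71225464-71238280, both on the minus strand, and Esrrg at chr1:187608791-188214885, Gabpa at chr16:84834925-84863779 and Ppard at chr17:28232754-28301469, all on the plus strand. Esrra was by far the most abundant of the regulators, at a median of 26.8 FPKM over the 16 libraries, above 88.0% of the genes listed. It averaged 30.2 ± 3.20 FPKM in DM-HFD linagliptin cells and 25.5 ± 6.16 FPKM in DM-HFD vehicle cells, against 26.7 ± 3.40 FPKM in control linagliptin cells and 29.5 ± 5.60 FPKM in control vehicle cells (SD, n = 3, 3, 5 and 5). In none of the groups did its libraries overlap those of the next gene. Nrf1 was the least abundant, with means of 0.824 ± 0.0417, 0.979 ± 0.189, 0.717 ± 0.122 and 0.758 ± 0.116 FPKM in the same order of groups, and its median of 0.787 FPKM lay above only 10.5% of genes.

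Between these ends the order differed between the DM-HFD and the control groups. In DM-HFD cells Ppard ranked second, followed by Rxra, Tfam, Gabpa and Ppargc1a under both exposures. In control cells Tfam and Gabpa held ranks 2 and 3, at 13.3 ± 1.16 and 12.6 ± 0.934 FPKM under linagliptin and 13.8 ± 1.82 and 11.6 ± 1.01 FPKM under vehicle, followed by Rxra, Ppard and Ppargc1a, with the last pair changing places under linagliptin. Esrrg, Ppara and Ppargc1b came next in that order in all 4 groups. Most neighbours in these orders overlapped in their libraries and so were not told apart. Besides Esrra and the gene after it, the neighbours that did not overlap were Tfam and Gabpa and also Ppargc1a and Esrrg in DM-HFD vehicle cells, and Ppargc1b and Nrf1 in all groups but DM-HFD vehicle.

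**Figure D1:**
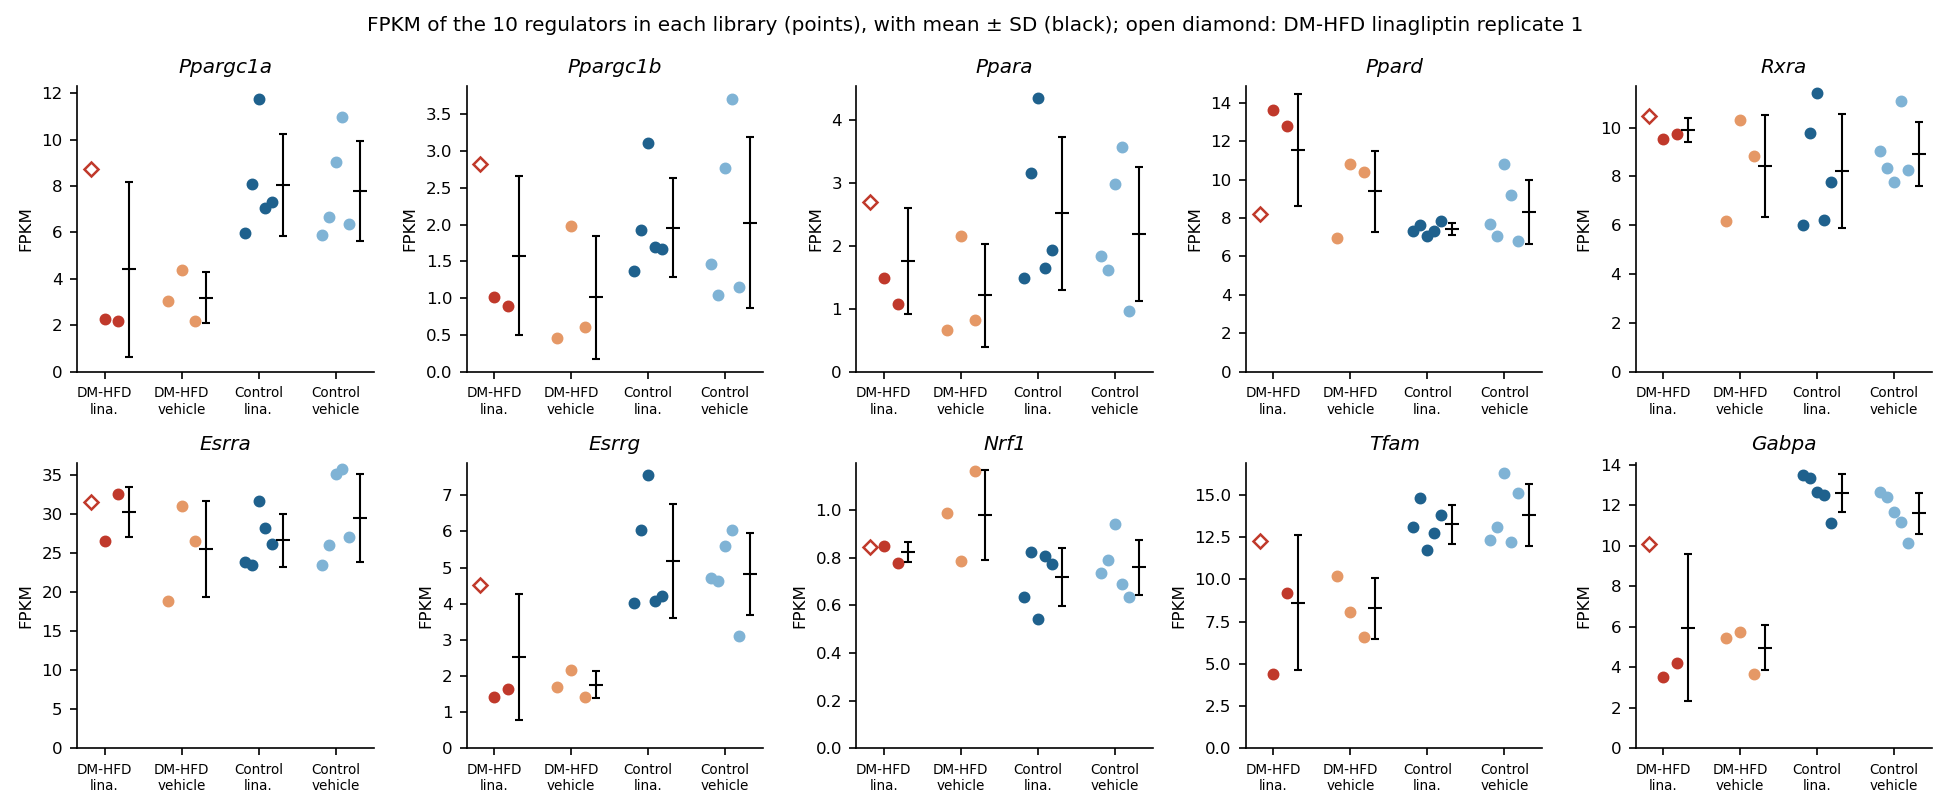
FPKM of each of the 10 regulators (vertical axes, each starting at 0) in every library of the 4 groups (horizontal axis), with points for libraries, black bars for the mean ± SD and an open diamond for DM-HFD linagliptin replicate 1. The DM-HFD vehicle libraries lie below all control vehicle libraries for Ppargc1a, Esrrg, Tfam and Gabpa, and the open diamond sits near the control libraries for the same genes.

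The first comparison asked how the regulators differed in DM-HFD cells when neither group had been exposed to the drug. The coactivator Ppargc1a, the receptor Esrrg and the biogenesis factors Gabpa and Tfam fell in DM-HFD vehicle cells relative to control vehicle cells, by about the same factor for the first 3 of these and less for Tfam. The other 6 did not pass the test, among them Esrra and the whole PPAR-RXR branch. Thus 4 of the 10 genes were called lower and 0 higher at an adjusted p under 0.05 in limma, with 0 higher at an unadjusted p under 0.05 as well and 1 higher and 1 lower in the linear model of Ballgown at that unadjusted p. Over all 11359 genes tested, 28.3% were called lower and 2.91% higher, with a median log2 value of -0.20, so a count of 4 lower sets these genes little apart from the rest.

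Ppargc1a measured 3.05, 4.36 and 2.18 FPKM in DM-HFD vehicle libraries, against 5.89, 6.67, 9.03, 10.96 and 6.37 FPKM in control vehicle libraries. The highest DM-HFD value stayed under the lowest control value. Its log2 fold change was -1.07 (SE 0.22, 95% confidence interval -1.55 to -0.58), with an adjusted p of 0.00452 in limma. In bulk libraries such a difference can come from fewer cells of a type or from less RNA per cell, and these cannot be told apart.

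Ppargc1b, the second coactivator, measured 0.460, 1.98 and 0.610 FPKM in DM-HFD vehicle libraries, against 1.47, 1.04, 2.76, 3.71 and 1.15 FPKM in control vehicle libraries. The 2 low DM-HFD libraries lay below all controls, while DM-HFD vehicle replicate 2 lay among them. The log2 fold change of -0.58 (SE 0.31) did not pass (adjusted p 0.186 in limma), and without DM-HFD vehicle replicate 2 it came to -0.90 with an adjusted p of 0.0446.

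Among the PPARs, Ppara measured 0.661, 2.16 and 0.826 FPKM in DM-HFD vehicle libraries, against 1.83, 1.61, 2.98, 3.57 and 0.965 FPKM in control vehicle libraries. The same DM-HFD library, replicate 2, was again the high one and the groups overlapped, with a log2 fold change of -0.52 (SE 0.29, adjusted p 0.196 in limma). Ppard measured 6.98, 10.8 and 10.4 FPKM in DM-HFD libraries, against 7.67, 7.09, 10.8, 9.18 and 6.80 FPKM in control libraries, and its log2 fold change of 0.16 (interval -0.24 to 0.55) had an adjusted p of 0.540 in limma. Rxra, the shared partner, ranged over 6.17 to 10.3 FPKM in DM-HFD libraries, against 7.76 to 11.1 FPKM in control libraries, with a log2 fold change of -0.09 (interval -0.45 to 0.28) and an adjusted p of 0.728 in limma. The intervals of Ppard and Rxra leave room for moderate differences in either direction.

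Of the ERR pair, Esrrg was called and Esrra was not. Esrrg measured 1.70, 2.16 and 1.43 FPKM in DM-HFD vehicle libraries, against 4.70, 4.63, 5.61, 6.04 and 3.12 FPKM in control vehicle libraries. All DM-HFD values were below all control values, and the log2 fold change was -1.06 (SE 0.18, adjusted p 0.00171 in limma). Esrra measured 18.9, 31.0 and 26.6 FPKM in DM-HFD libraries, against 23.5, 26.0, 35.2, 35.8 and 27.0 FPKM in control libraries, so the groups overlapped, with a log2 fold change of -0.21 (interval -0.64 to 0.21, adjusted p 0.429 in limma).

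Of the factors for mitochondrial content, Gabpa measured 5.43, 5.76 and 3.68 FPKM in DM-HFD vehicle libraries, against 12.6, 12.4, 11.7, 11.2 and 10.1 FPKM in control vehicle libraries. The gap between the groups was wide beside the spread within them, and the log2 fold change was -1.09 (SE 0.14, adjusted p 0.000672 in limma). Tfam measured 10.2, 8.09 and 6.57 FPKM in DM-HFD libraries, against 12.3, 13.1, 16.3, 12.2 and 15.1 FPKM in control libraries, again without overlap, with a log2 fold change of -0.68 (SE 0.15, adjusted p 0.00745 in limma). Nrf1 measured 0.987, 0.787 and 1.16 FPKM in DM-HFD libraries, against 0.736, 0.788, 0.941, 0.691 and 0.636 FPKM in control libraries. Its groups overlapped and its log2 fold change of 0.17 did not pass (adjusted p 0.254 in limma).

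For Ppargc1a, Esrrg, Gabpa and Tfam no DM-HFD library reached any control library, as was so for 30.0% of all genes in the lower direction. Leaving out any single library kept all 4 calls, with adjusted p of at most 0.0267 for Ppargc1a, 0.0120 for Esrrg, 0.00389 for Gabpa and 0.0383 for Tfam in limma. The linear model of Ballgown called 0 of the 10 and 0 of all 11359 genes (937 at an unadjusted p under 0.05). With trends over length and GC content removed Ppargc1a (-0.57, adjusted p 0.0629) and Tfam (-0.40, adjusted p 0.0582) missed the threshold in limma. Tfam also lost its call with median-of-ratios scaling (adjusted p 0.0771) and quantile scaling (0.0671). Nrf1 was called higher under both scalings, with log2 fold changes of 0.31 and 0.40 (adjusted p 0.0468 and 0.0151, all in limma). Over all genes the 331 higher and 3220 lower calls on FPKM came to 122 and 5321 on TPM, 1527 and 1779 with median-of-ratios scaling and 1272 and 1554 with quantile scaling, and the median log2 fold change moved to -0.47, 0.01 and 0.03. By the study's own thresholds, which ask for a 1.5-fold difference and an unadjusted p no larger than 0.05, the same 4 genes were lower and 0 higher, with 18.2% of all genes lower and 1.84% higher.

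Marker genes of several cell types differed in the same comparison. Lower in DM-HFD cells were 7 of 12 endothelial markers, 6 of 10 smooth muscle and pericyte markers, 4 of 12 cardiomyocyte markers and 1 of 10 fibroblast markers, and 4 of 9 macrophage markers tested were higher, against 28.3% of all genes lower and 2.91% higher. Kdr, the endothelial VEGF receptor, averaged 6.26 ± 1.22 FPKM in DM-HFD vehicle cells and 15.5 ± 2.44 FPKM in control vehicle cells. Rgs5, a pericyte marker, averaged 2.45 ± 0.668 FPKM in DM-HFD and 11.7 ± 2.55 FPKM in control cells, and Pln, the cardiomyocyte regulator of the calcium pump, 105 ± 27.3 FPKM in DM-HFD and 184 ± 24.1 FPKM in control cells. Cd68, a lysosomal protein of macrophages, averaged 33.2 ± 11.6 FPKM in DM-HFD and 13.5 ± 2.41 FPKM in control cells (SD, n = 3 and 5 in each case). The part of these marker differences in those of the regulators was not tested.

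The second comparison set DM-HFD against control cells that had all been exposed to linagliptin. Gabpa and Esrrg were again lower, and Ppard was higher, in DM-HFD cells. The 3 calls compare with 21.9% of 11555 genes called lower and 4.67% called higher in limma, with a median log2 value of -0.06 over all of them. The second comparison shares no library with the first, but the labels do not say whether the same mice supplied both.

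Gabpa measured 10.1, 3.52 and 4.20 FPKM in DM-HFD linagliptin libraries, against 13.5, 13.3, 12.6, 12.5 and 11.1 FPKM in control linagliptin libraries. DM-HFD replicate 1 came close to the lowest control, but the groups did not overlap, as was so for 21.8% of all genes in the lower direction. The log2 fold change was -1.09 (SE 0.26, adjusted p 0.0161 in limma) and without DM-HFD linagliptin replicate 1 it was -1.49 (adjusted p 7.3e-05). The call was lost without DM-HFD linagliptin replicate 3 (adjusted p 0.0915).

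Esrrg measured 4.52, 1.41 and 1.63 FPKM in DM-HFD linagliptin libraries, against 4.01, 6.03, 7.57, 4.07 and 4.20 FPKM in control linagliptin libraries. DM-HFD replicate 1 lay among the controls, and the other 2 below all of them. The log2 fold change of -0.88 (SE 0.29) passed narrowly (adjusted p 0.0476 in limma). It was -1.26 without DM-HFD linagliptin replicate 1 (adjusted p 0.00194), and leaving out any other single library ended the call.

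Ppard measured 8.20, 13.6 and 12.8 FPKM in DM-HFD linagliptin libraries, against 7.33, 7.63, 7.08, 7.32 and 7.86 FPKM in control linagliptin libraries. The controls were tightly grouped, at 7.44 ± 0.301 FPKM (SD, n = 5), and all 3 DM-HFD libraries lay above them, replicate 1 by the least. The libraries of 6.25% of all genes did not overlap in that direction. The log2 fold change was 0.54 (SE 0.16, adjusted p 0.0352 in limma), 0.75 without DM-HFD linagliptin replicate 1 (adjusted p 0.000609), and not called when any other single library was left out.

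Ppargc1a measured 8.75, 2.26 and 2.21 FPKM in DM-HFD linagliptin libraries, against 5.97, 8.07, 11.7, 7.07 and 7.32 FPKM in control linagliptin libraries. Replicate 1 exceeded 4 of the 5 controls, while replicates 2 and 3 lay far below all of them. With all libraries the log2 fold change of -0.92 (SE 0.35) missed the threshold (adjusted p 0.0773 in limma), and without replicate 1 it was -1.45 (adjusted p 0.000709). Tfam measured 12.3, 4.41 and 9.18 FPKM in DM-HFD libraries, against 13.1, 14.8, 11.8, 12.7 and 13.8 FPKM in control libraries, with a log2 fold change of -0.66 (adjusted p 0.0749 in limma) that was -0.94 without replicate 1 (adjusted p 0.00731). Both genes were called without DM-HFD linagliptin replicate 1, and with all libraries in 1 fit over all 4 groups (adjusted p 0.0325 for Ppargc1a and 0.0267 for Tfam in limma), and Ppargc1a also on TPM (adjusted p 0.0471 in limma).

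Ppargc1b measured 2.83, 1.02 and 0.891 FPKM in DM-HFD linagliptin libraries, against 1.37 to 3.11 FPKM in control linagliptin libraries, with a log2 fold change of -0.25 (adjusted p 0.472 in limma), or -0.57 without replicate 1 (adjusted p 0.0377). Ppara measured 2.71, 1.496 and 1.08 FPKM in DM-HFD libraries, against 1.49 to 4.34 FPKM in control libraries, with a log2 fold change of -0.33 (adjusted p 0.384), or -0.56 without replicate 1 (adjusted p 0.132). Both coactivator and receptor were again highest in replicate 1 of the DM-HFD group. Rxra (log2 fold change 0.27, adjusted p 0.311), Esrra (0.18, adjusted p 0.364) and Nrf1 (0.09, adjusted p 0.532) did not pass in limma. The 3 DM-HFD libraries ranged over 9.53 to 10.5 FPKM for Rxra, 26.6 to 32.6 FPKM for Esrra and 0.776 to 0.850 FPKM for Nrf1, within or across the range of the controls, which was 6.02 to 11.4, 23.5 to 31.7 and 0.544 to 0.824 FPKM.

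Without DM-HFD linagliptin replicate 1, 6 of the regulators were called, Gabpa, Esrrg, Ppargc1a, Tfam and Ppargc1b lower and Ppard higher, among 3439 genes lower and 2357 higher of 11560. Without DM-HFD linagliptin replicate 2 only Gabpa was called in limma, lower, among 1826 genes lower and 168 higher. Without DM-HFD linagliptin replicate 3 none of the 10 was called in limma (2 were lower and 1 higher at an unadjusted p under 0.05), among 101 genes lower and 5 higher. None of the 3 calls on all libraries held with trends over length and GC content removed or in the linear model of Ballgown, which called 1 of all 11555 genes, Esrrg was not called with median-of-ratios or quantile scaling, and Ppard was not called on TPM. Of all calls, the higher ones made up 17.6% on FPKM and 43.1% and 47.9% with median-of-ratios and quantile scaling. By the study's thresholds 4 of the regulators, Ppargc1a, Esrrg, Tfam and Gabpa, were lower, as were 17.9% of all genes, and 0 were higher, as were 3.83% of all genes. In this comparison 3 of 12 endothelial, 2 of 12 cardiomyocyte and 1 of 10 fibroblast markers were lower, 4 of 10 smooth muscle and pericyte markers were lower and 1 higher, and 3 of 9 macrophage markers were higher, against 21.9% of all genes lower and 4.67% higher. Without DM-HFD linagliptin replicate 1, 4 cardiomyocyte markers were lower, 5 smooth muscle and pericyte markers were lower and 2 higher, and the macrophage count was 8 of 10 without DM-HFD linagliptin replicate 1. Their part in the result was not tested.

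**Figure D2:**
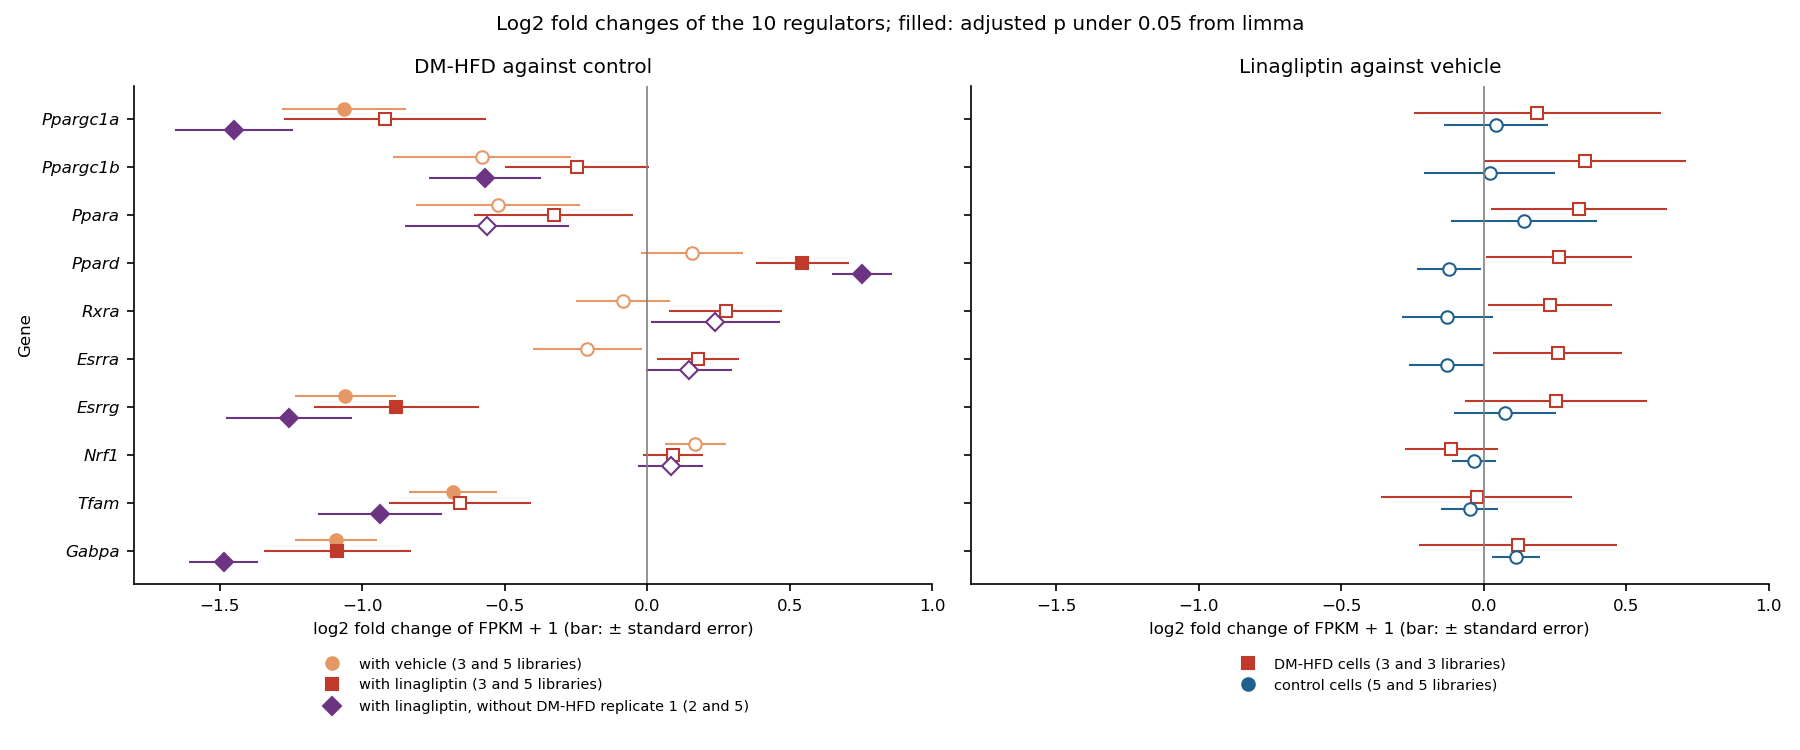
Log2 fold changes of the 10 regulators (horizontal axes) from limma, with bars for ± SE, for DM-HFD against control cells under each exposure (diamonds: without DM-HFD linagliptin replicate 1) and for linagliptin against vehicle in each kind of cell, with filled symbols for an adjusted p under 0.05. With vehicle Ppargc1a, Esrrg, Tfam and Gabpa lie at -0.68 or lower, and no symbol is filled for linagliptin against vehicle.

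The drug comparison asked whether 24 h of linagliptin moved the regulators. In control cells 0 of the 10 were called by limma, 0 at an unadjusted p under 0.05, and 0 of 11365 genes (0.0%) were called, although 455 had an unadjusted p under 0.05. The linear model of Ballgown also called 0 of the 10 after adjustment, and 1 at an unadjusted p under 0.05. The log2 fold changes lay between -0.13 for Esrra and 0.14 for Ppara, with adjusted p of 0.997 to 0.998. The tightest intervals were those of Nrf1 (-0.20 to 0.13), Gabpa (-0.07 to 0.30) and Tfam (-0.27 to 0.17), and the widest that of Ppara (-0.42 to 0.70). Ppargc1a averaged 8.04 ± 2.21 FPKM in control linagliptin cells and 7.78 ± 2.15 FPKM in control vehicle cells (SD, n = 5 each), with an interval of -0.36 to 0.44 on the log2 scale.

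In DM-HFD cells 0 of the 10 were called, 0 at an unadjusted p under 0.05, and 0 of 11127 genes (0.0%) passed in limma, although 129 had an unadjusted p under 0.05. The linear model of Ballgown gave 0 of the 10 at either threshold. The log2 fold changes lay between -0.11 for Nrf1 and 0.35 for Ppargc1b, where the median of all genes was 0.12, and every adjusted p was 1.0 after rounding. The intervals were wide, -0.81 to 1.18 for Ppargc1a, -0.46 to 1.17 for Ppargc1b, -0.32 to 0.85 for Ppard, -0.68 to 0.92 for Gabpa and -0.80 to 0.75 for Tfam. Upward or downward, those of Ppargc1a, Ppargc1b, Ppard and Tfam reach the size of the gene's difference between DM-HFD and control vehicle cells. That of Gabpa stays short of the size of its difference, -1.09.

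The sign of several of these values rested on DM-HFD linagliptin replicate 1. With all libraries Ppargc1a averaged 4.41 ± 3.76 FPKM in DM-HFD linagliptin cells and 3.20 ± 1.10 FPKM in DM-HFD vehicle cells, Gabpa 5.94 ± 3.62 FPKM with linagliptin and 4.96 ± 1.12 FPKM with vehicle, and Esrrg 2.52 ± 1.74 FPKM with linagliptin and 1.76 ± 0.367 FPKM with vehicle (SD, n = 3 each). Their log2 fold changes were 0.19, 0.12 and 0.25, and without that library -0.34, -0.28 and -0.12. Ppard averaged 11.5 ± 2.93 FPKM with linagliptin and 9.40 ± 2.11 FPKM with vehicle, and its log2 fold change of 0.26 was 0.47 without that library (adjusted p 0.497 in limma).

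The difference between the drug responses of DM-HFD and control cells was tested directly. It was called for 0 of 11631 genes (0.0%), although 532 had an unadjusted p under 0.05, and for 0 of the regulators at either threshold, with values from -0.08 for Nrf1 to 0.39 for Esrra and Ppard and adjusted p of 0.891 to 0.995 in limma. The linear model of Ballgown called 0 of the 10 after adjustment and 1 at an unadjusted p under 0.05. Without DM-HFD linagliptin replicate 1, 18 genes were called, none of them a regulator. Ppard came nearest, at 0.60 with an adjusted p of 0.173 in limma. By the study's thresholds 0 of the 10 differed in response, against 1.3% of all genes with a higher and 0.421% with a lower response in DM-HFD cells, and Ppard passed them without DM-HFD linagliptin replicate 1. In the drug comparisons themselves 0 of the 10 passed these thresholds, against 0.114% of genes higher and 0.106% lower in control cells and 0.494% higher and 0.162% lower in DM-HFD cells.

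Ratios of related members within a library do not depend on a factor that multiplies every gene of that library. Quantile scaling and the removal of trends over length and GC content are not of that kind, and the ratios were not recomputed under them. In vehicle cells the Esrrg to Esrra ratio was 0.0900, 0.0695 and 0.0538 in DM-HFD libraries, against 0.200, 0.178, 0.159, 0.169 and 0.115 in control libraries. In linagliptin cells it was 0.1436, 0.0532 and 0.05002 in DM-HFD libraries, against 0.168, 0.257, 0.239, 0.1441 and 0.161 in control libraries. ERRgamma mRNA thus made up less beside ERRalpha mRNA in all 6 DM-HFD libraries than in the control libraries of the same exposure, with replicate 1 of the DM-HFD linagliptin group only just under the lowest control. The differences in mean log2 ratio were -1.22 with vehicle and -1.38 with linagliptin, or -1.87 without DM-HFD linagliptin replicate 1. The exact two-sided permutation p was 0.0179 in both, the smallest that 3 against 5 libraries can give, and after adjustment over the 16 ratio tests it was 0.0952.

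The Ppargc1a to Ppargc1b ratio was lower in DM-HFD linagliptin libraries than in all control linagliptin libraries, by a log2 difference of -0.70 (exact permutation p 0.0179, adjusted 0.0952), or -0.83 without DM-HFD linagliptin replicate 1. With vehicle that difference was -0.18 (exact permutation p 0.679), and it was 0.20 without DM-HFD vehicle replicate 2 and -0.60 without DM-HFD vehicle replicate 1. The Ppara to Ppard ratio differed by -1.08 with vehicle and -1.10 with linagliptin (exact permutation p 0.0536 and 0.125), the second being -1.69 without DM-HFD linagliptin replicate 1 and -0.71 without replicate 3. The Tfam to Gabpa ratio differed by 0.50 with vehicle and 0.51 with linagliptin (exact permutation p 0.0536 and 0.0357), the second being 0.65 without DM-HFD linagliptin replicate 1 and 0.23 without replicate 3. None of the 16 tests passed after adjustment, a count that includes the 8 ratios between linagliptin and vehicle, whose exact p were 0.254 or more. With so few libraries no ratio could have passed alone, and 3 against 3 libraries give no exact permutation p under 0.1.

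**Figure D3:**
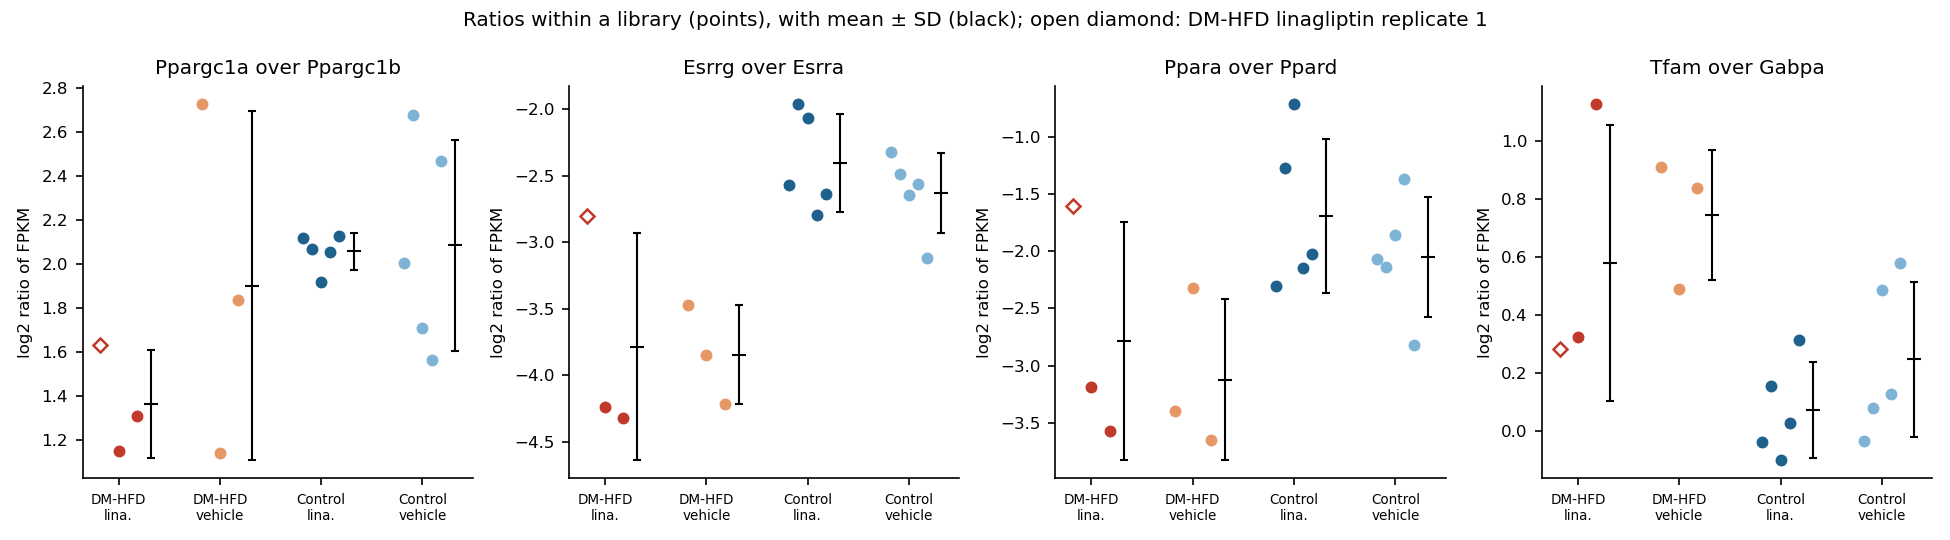
Log2 ratios of Ppargc1a to Ppargc1b, Esrrg to Esrra, Ppara to Ppard and Tfam to Gabpa within each library (vertical axes), by group, with black bars for the mean ± SD and an open diamond for DM-HFD linagliptin replicate 1. The Esrrg to Esrra ratio averages -3.79 in DM-HFD linagliptin, -3.84 in DM-HFD vehicle, -2.41 in control linagliptin and -2.63 in control vehicle libraries.

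The transcript table gave a second reading of the same libraries. The genes Ppargc1a, Ppargc1b, Ppard and Rxra each had 1 transcript listed. Single transcripts dominated Esrra (Esrra-201, 90.6% of the gene's listed transcript FPKM), Tfam (Tfam-201, 91.1%) and Gabpa (Gabpa-201, 88.6%). In single libraries their shares fell as low as 72.1% for Esrra-201, 54.1% for Tfam-201 and 64.4% for Gabpa-201. With vehicle, Gabpa-201 averaged 5.28 ± 1.12 FPKM in DM-HFD cells and 12.5 ± 1.07 FPKM in control cells, and it was called lower with a log2 fold change of -1.12 (adjusted p 0.00962 in limma). Ppargc1a-203 averaged 3.16 ± 0.971 FPKM in DM-HFD and 7.55 ± 2.03 FPKM in control cells (SD, n = 3 and 5) and was also called lower (adjusted p 0.0384 in limma), while Tfam-201 missed the threshold (log2 fold change -0.68, adjusted p 0.0524). Of all transcripts 6.33% were called lower and 0.58% higher. The Ppargc1a-203 call was lost when any 1 of 5 libraries was left out, namely control vehicle replicates 1 to 4 and DM-HFD vehicle replicate 3, which left 1 transcript called.

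With linagliptin 0 of the transcripts of the 10 genes were called in limma (5 had an unadjusted p under 0.05), against 0.654% of all transcripts lower and 0.119% higher, and 4 were called without DM-HFD linagliptin replicate 1. The split of Esrrg and Ppara between their transcripts was unstable from library to library, with shares of Esrrg-203 and Ppara-202 ranging from 0 to 100% over the 16 libraries, and Ppara-201 was listed at 0 in 15 of 16. Such shares rest on the assembler's division of reads between overlapping transcripts, and the cause of their spread was not tested. None of 24 exact permutation tests of transcript shares passed after adjustment, the lowest unadjusted p being 0.0536. No share could have passed alone, so this count says little. The smallest exact permutation p is 0.0179 for 3 against 5 libraries, 0.1 for 3 against 3 and 0.00794 for 5 against 5.

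Deviations from the condition means show which regulators moved together from library to library. These correlations are a description over libraries that share their scaling and their cell content, so they are given with no p. Removing 1 library at this step was decided after its position among the libraries was seen. Over the 15 libraries without DM-HFD linagliptin replicate 1, Pearson's r was 0.90 between Ppargc1a and Ppargc1b, 0.92 between Ppargc1b and Ppara, 0.92 between Ppara and Esrrg and 0.83 between Ppargc1a and Esrrg. Over all 16 the same pairs had r of 0.87, 0.92, 0.86 and 0.92. These 4 genes therefore formed a block in which a library high for one was high for the others, and control vehicle replicates 3 and 4 and control linagliptin replicate 3 were the high ones in the control groups. The block had no sharp edge over the 15 libraries, where its weakest pair, Ppargc1b and Esrrg, had r of 0.76. Esrra had 0.80 with Ppargc1b and Rxra 0.77 with Ppara, and both had lower values with the rest of the block.

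Over the 15 libraries without DM-HFD linagliptin replicate 1, Gabpa and Tfam stood outside that block. Ppargc1a and Gabpa had r of 0.76 over all 16 libraries and 0.26 over 15, Tfam and Gabpa 0.69 and 0.40, and Ppard and Gabpa -0.60 and -0.18. Within the 10 control libraries alone, r was 0.93 between Ppargc1a and Ppargc1b and 0.97 between Ppara and Esrrg, and -0.15 between Ppargc1a and Gabpa. Within the DM-HFD libraries alone, without linagliptin replicate 1, Gabpa had r of 0.84 with Ppargc1a and 0.88 with Esrrg. There it had 0.44 with Ppargc1b and 0.36 with Ppara, so its place outside the block did not hold for every pair in DM-HFD cells. Nrf1 had r of -0.38 to 0.30 with the other 9 genes over the 15 libraries. Within the DM-HFD libraries alone, without linagliptin replicate 1, its r ran from -0.99 with Esrrg to -0.11 with Ppard. So few libraries leave any r among them poorly determined.

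**Figure D4:**
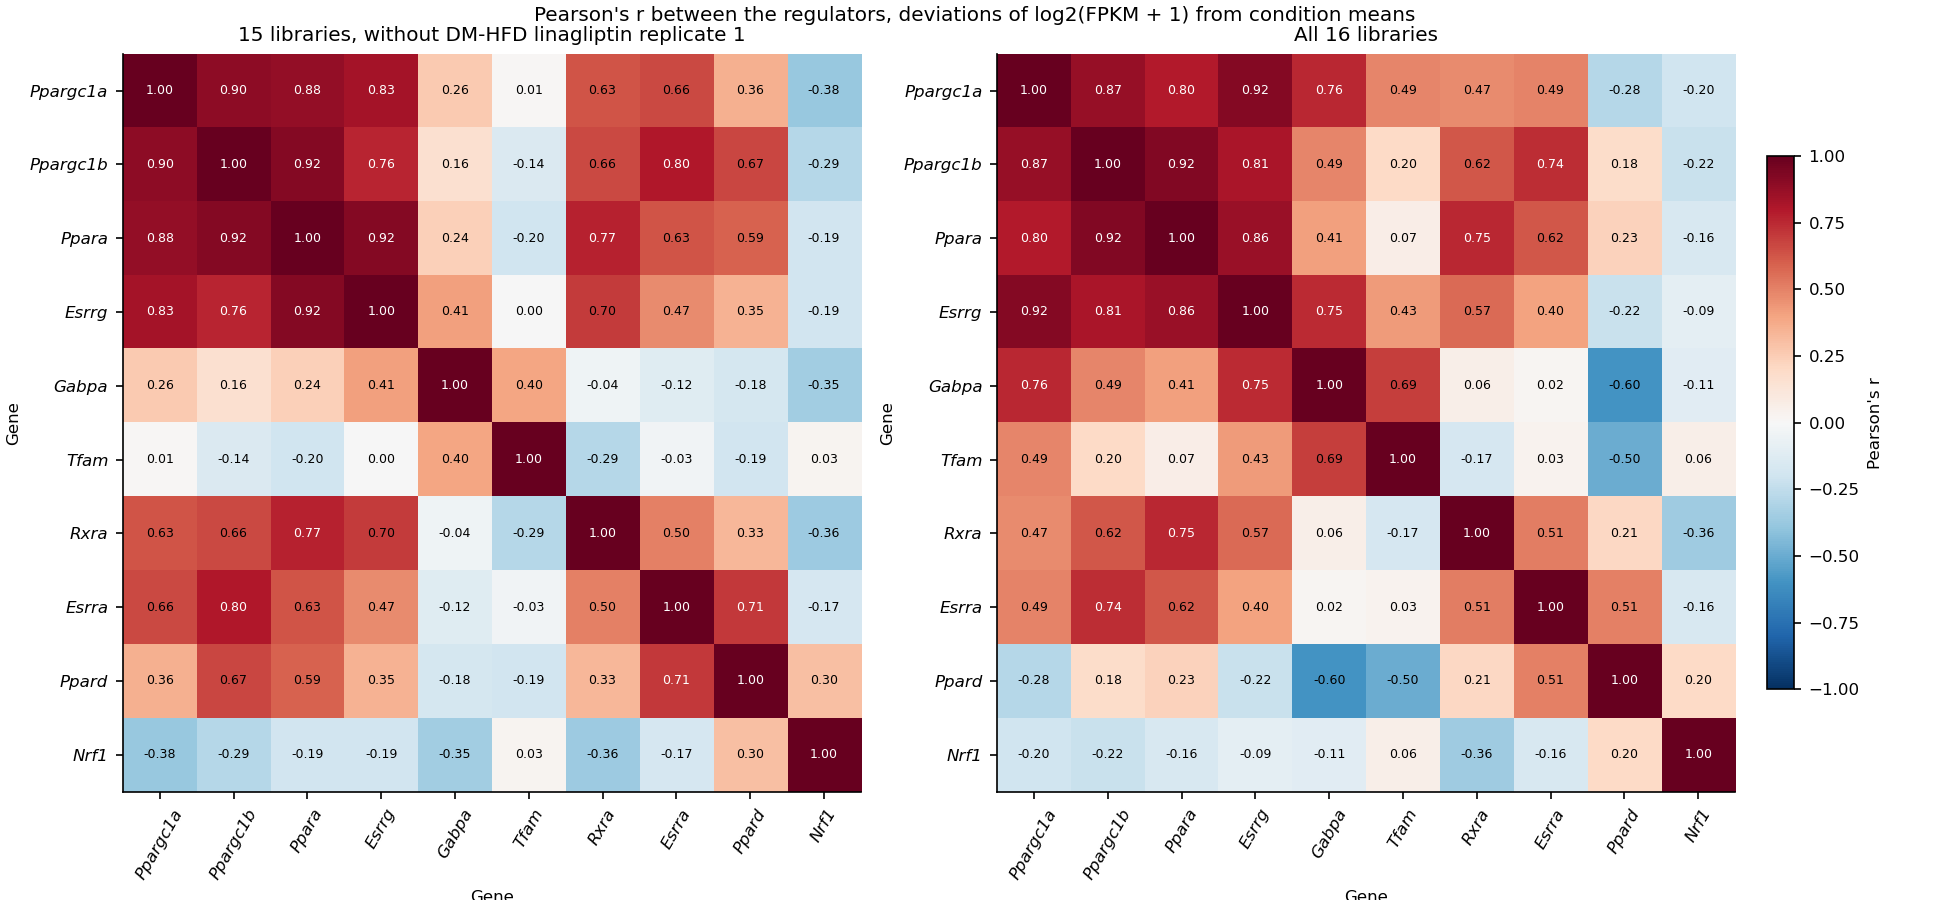
Pearson's r between each pair of the 10 regulators (genes on both axes, colour from -1 to 1) from deviations of log2(FPKM + 1) from condition means, over the 15 libraries without DM-HFD linagliptin replicate 1 (left) and over all 16 (right). Ppargc1a, Ppargc1b, Ppara and Esrrg form a block of r of 0.76 or more in both, while r between Ppargc1a and Gabpa is 0.26 on the left and 0.76 on the right.

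The genes most like each regulator in these deviations over 16 libraries were, by the highest r, Hibch (0.98), Phtf2 and Strn for Ppargc1a, Tbc1d4 (0.96), Ppm1l and Slc22a3 for Ppargc1b, Ank2 (0.96), Hipk1 and Amer1 for Ppara, and Lpgat1 (0.97), Trip12 and Slco5a1 for Esrrg. For Gabpa they were Bmpr1a (0.97), Kdm5a and Trim23, and for Tfam Crnkl1 (0.96), Mphosph8 and Spop. Ppard was closest to Gcn1l1 (0.95), Rpap1 and Ccar2, Esrra to Fem1a (0.95), Clec16a and Ywhag, Rxra to Skida1 (0.89), Slc46a3 and Josd1, and Nrf1 to Slc28a2 (0.90), Ahnak and Nup37. Over 15 libraries r was 0.94 for Ppargc1a with Hibch and 0.89 for Gabpa with Bmpr1a.

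The cofactors and partner receptors of the pathway, a list of 34 genes, were called lower more often than higher in DM-HFD cells. With vehicle 20 were lower and 0 higher, against 28.3% and 2.91% of all genes, at a median log2 fold change of -0.55, against -0.20 for all genes. Rps6kb1, the S6 kinase, averaged 3.18 ± 0.505 FPKM in DM-HFD vehicle cells and 7.65 ± 0.516 FPKM in control vehicle cells. Fbxw7, the ubiquitin ligase subunit that targets PGC-1alpha among other proteins, averaged 1.80 ± 0.620 FPKM in DM-HFD and 6.62 ± 1.03 FPKM in control cells, and Med13, a Mediator subunit, 3.39 ± 0.511 FPKM in DM-HFD and 8.23 ± 1.03 FPKM in control cells (SD, n = 3 and 5). With linagliptin 15 were lower and 0 higher, against 21.9% and 4.67% of all genes, or 19 lower and 5 higher without DM-HFD linagliptin replicate 1, and 0 in either direction without replicate 3. The vehicle count was 25 lower on TPM, 12 with median-of-ratios scaling and 7 with quantile scaling, with 0 higher in each, and with linagliptin median-of-ratios scaling gave 11 lower and 4 higher and quantile scaling 7 and 3.

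Target genes were called in both directions with vehicle. Of 33 PPAR targets, 8 were higher and 3 lower with vehicle, against 2.91% of all genes higher and 28.3% lower. Their median log2 fold change was 0.10, against -0.20 for all genes, and it turned to -0.12 on TPM, where 3 were higher and 4 lower. Ech1, an auxiliary enzyme for unsaturated fatty acids, averaged 601 ± 29.6 FPKM in DM-HFD and 311 ± 26.1 FPKM in control cells, and Fabp3, the cytosolic fatty acid carrier of heart, 1938 ± 68.1 FPKM in DM-HFD and 1383 ± 91.4 FPKM in control cells. Among those lower, Lpl, which frees fatty acids from circulating triglyceride, averaged 149 ± 33.3 FPKM in DM-HFD and 277 ± 33.3 FPKM in control cells, Vldlr, a lipoprotein receptor, 8.59 ± 3.67 FPKM in DM-HFD and 18.6 ± 5.79 FPKM in control cells, and Acadm, the medium-chain acyl-CoA dehydrogenase, 160 ± 37.6 FPKM in DM-HFD and 221 ± 23.0 FPKM in control cells (SD, n = 3 and 5 in each case).

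With linagliptin 8 PPAR targets were higher and 0 lower, against 4.67% of all genes higher and 21.9% lower, with a median of 0.40 against -0.06 for all genes. The counts were 9 higher and 5 lower without DM-HFD linagliptin replicate 1, and 2 higher and 0 lower without replicate 3. Ech1 and Fabp3 were higher in that comparison too, by log2 fold changes of 0.76 and 0.49. Lpl, at -0.49, did not pass (adjusted p 0.0970 in limma).

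Of 40 ERR and NRF-1 targets of oxidative metabolism, 2 were higher and 4 lower with vehicle, against 2.91% of all genes higher and 28.3% lower. The median log2 fold change was 0.01, against -0.20 for all genes. That of the list was -0.25 on TPM, 0.30 with median-of-ratios scaling and -0.10 with quantile scaling, so the list has no direction that holds under all scalings. Those lower included Mfn1 and Opa1, the fusion GTPases of the outer and inner mitochondrial membrane, at 17.1 ± 4.66 and 10.5 ± 2.69 FPKM in DM-HFD vehicle cells, against 36.5 ± 5.50 and 21.7 ± 5.07 FPKM in control vehicle cells. Ndufs1, the largest subunit of complex I, averaged 37.2 ± 11.2 FPKM in DM-HFD vehicle cells and 67.7 ± 12.3 FPKM in control vehicle cells. The 2 higher were Cox4i1 and Ndufb5, subunits of complexes IV and I, by log2 fold changes of 0.43 and 0.41, and Cox4i1 turned sign once trends over length and GC content were removed. With linagliptin 4 were higher and 1 lower, against 4.67% and 21.9% of all genes, or 9 and 6 without DM-HFD linagliptin replicate 1, and 0 in either direction without replicate 3.

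The machinery that copies and transcribes mitochondrial DNA beside TFAM, 24 genes, had 7 lower and 0 higher with vehicle, a share close to the 28.3% of all genes that were lower. With linagliptin 6 were lower and 0 higher, again close to the 21.9% of all genes, and the counts were 8 lower and 1 higher without DM-HFD linagliptin replicate 1, 2 lower without replicate 2 and 0 without replicate 3. Tfb2m, the transcription factor that opens the mitochondrial promoter, averaged 18.4 ± 3.24 FPKM in DM-HFD vehicle cells and 29.5 ± 0.991 FPKM in control vehicle cells. Mgme1, a nuclease of mitochondrial DNA, averaged 5.38 ± 0.864 FPKM in DM-HFD and 8.41 ± 0.454 FPKM in control cells, and Mterf2, of the mitochondrial termination factor family, 3.36 ± 1.27 FPKM in DM-HFD and 6.52 ± 1.04 FPKM in control cells (SD, n = 3 and 5). With vehicle, median-of-ratios scaling gave 2 lower and 1 higher and quantile scaling 2 and 0, and the list's median log2 fold change of -0.24 moved to -0.03 and -0.02.

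The 13 mRNAs that mitochondrial DNA encodes had 8 higher and 0 lower with vehicle, against 2.91% of all genes higher and 28.3% lower, and a median log2 fold change of 0.63. The counts were 6 higher and 1 lower on TPM, 12 and 0 with median-of-ratios scaling and 3 and 0 with quantile scaling, where the median was -0.06. mt-Co3 had the largest log2 fold change of the 3 named, 1.19, followed by mt-Co1 at 0.74 and mt-Nd1 at 0.65, and the last turned sign with quantile scaling. With linagliptin 1 was higher and 0 lower, at a median of -0.10, or 1 higher and 2 lower, at -0.24, without DM-HFD linagliptin replicate 1. Without replicate 3 none was called in limma, and the median was 0.26.

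**Figure D5:**
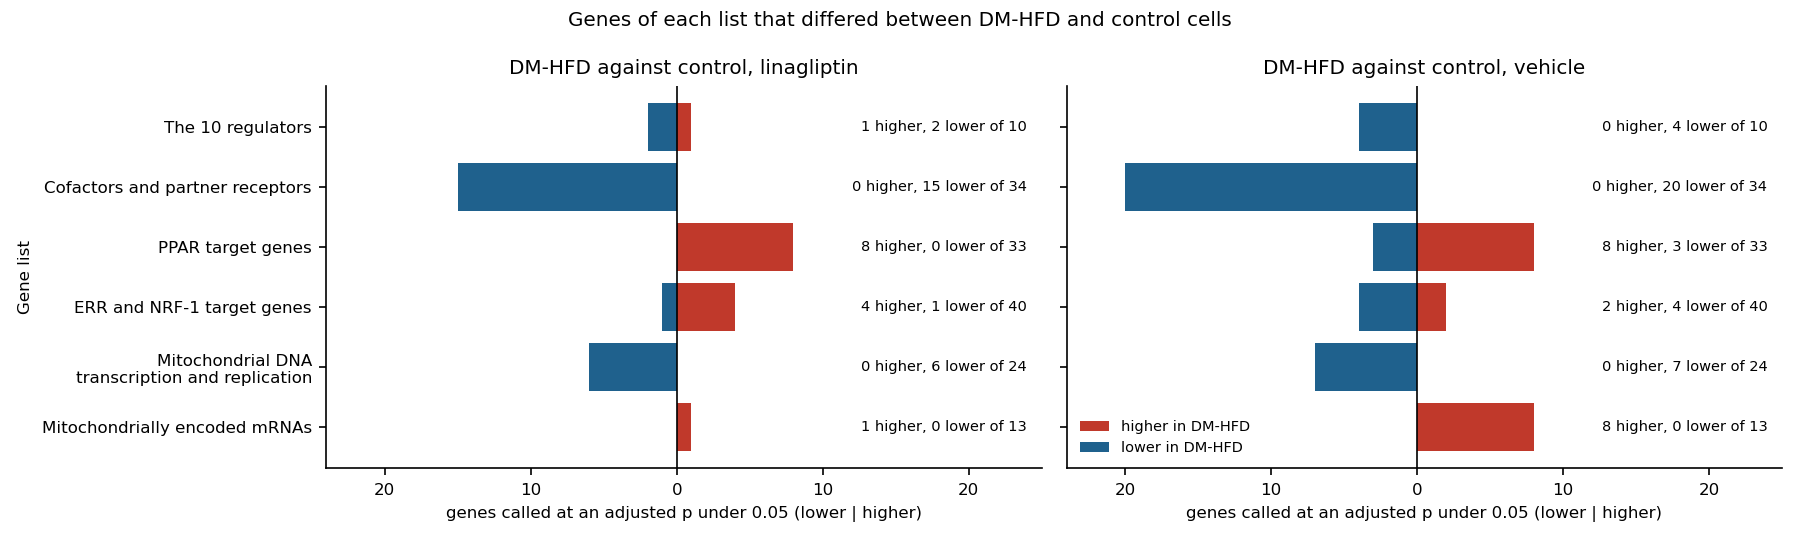
Number of genes of each list that were higher or lower in DM-HFD cells, relative to control cells (horizontal axes, genes with an adjusted p under 0.05 in limma) with linagliptin and with vehicle, for the 10 regulators, their cofactors, their target lists and the mitochondrial lists. With vehicle 4 of 10 regulators and 20 of 34 cofactors are lower, while PPAR targets are split 8 higher and 3 lower.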

How the data were processed

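RNA sequencing of 16 libraries of primary mouse cardiomyocytes in 4 groups was analysed. Per the labels and the study's methods, poly(A) RNA libraries were made with a stranded kit and sequenced paired-end, read quality was checked with FastQC 0.11.7, adapters were trimmed with cutadapt, reads were aligned to GRCm38 with HISAT2 2.1.0 and transcripts were assembled and quantified with StringTie 1.3.3. The authors deposited FPKM values per gene and per transcript. No feature had a mean under 0.5 FPKM in every condition. Read counts were not used here, so depth is unknown.

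From the deposited FPKM, log2(FPKM + 1) was fitted for each comparison with limma 3.58.1 (R 4.3.3, trended empirical Bayes) on the groups compared, leaving out genes whose mean stayed under 0.5 FPKM in all of those groups, with Benjamini-Hochberg adjustment over all of them. A fold change on that scale understates the change of low genes. Ratios and transcript shares were compared by exact permutation tests in Python 3.11.15. The model was tested on simulated data. The difference in drug response was an interaction term over all 16 libraries.

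The members and lists were chosen with earlier results of these data known. All 10 members are named, and of each other list the 3 genes with the lowest adjusted p in each direction among those called between DM-HFD and control vehicle cells. A gene that this rule names among the PPAR targets is not reported here. The genes most like a member are the 3 with the highest Pearson's r. Alternatives were a pseudocount of 0.1, no filter, TPM, median-of-ratios and quantile scaling, removal of trends over length and GC content, limma without the trend, the linear model of Ballgown, the study's thresholds, gene values summed from transcripts, 1 fit over all 4 groups, a replicate block and leaving out each library in turn. Correlations without DM-HFD linagliptin replicate 1 were added after the data were seen.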

Additional observations from a re-analysis of the deposited data

How the results depend on the processing

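Of the values for single members and ratios under an alternative, 1118 kept their side of the threshold, of which 76, none of them called, changed sign. A further 37 lost and 9 gained a call with the sign kept. For DM-HFD against control cells with vehicle, the number of genes called was 5443 on TPM and 0 in the linear model of Ballgown. The number of members called was 2 with trends over length and GC content removed and 0 in the Ballgown model, where 2 passed the study's thresholds. For DM-HFD against control cells with linagliptin, the number of genes called was 1106 with trends removed and 1 in the Ballgown model, and 106 to 5796 when 1 library was left out. The members called there were 0 with trends removed, 0 in the Ballgown model, 5 in 1 fit over all 4 groups and 0 to 6 when 1 library was left out. The members past the study's thresholds there were 0 with trends removed, 2 in the Ballgown model and 1 to 5 when 1 library was left out. For linagliptin against vehicle, 0 to 1 genes were called in control and 0 to 1 in DM-HFD cells when 1 library was left out, and 1 in DM-HFD cells with trends removed. For the difference in drug response, leaving out 1 library gave 0 to 18 genes and 0 to 1 members past the study's thresholds. Member transcripts called were 1 to 2 with vehicle and 0 to 4 with linagliptin when 1 library was left out. The cause of these shifts was not tested.

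The labels state no pairing by replicate number. Between linagliptin and vehicle, deviations of same-numbered libraries correlated at -0.31 to 0.50 in control and -0.60 to 0.18 in DM-HFD cells. Of the control linagliptin libraries 3 of 5, and of the DM-HFD linagliptin libraries 1 of 3, correlated best with their own number. So few libraries cannot settle whether the numbers mark a shared isolation. With a replicate block, the genes called between DM-HFD and control cells were 2088 with vehicle and 0 with linagliptin. The members called were 3 (Tfam, at an adjusted p of 0.0677 in limma, was not) and 0, and the members past the study's thresholds with linagliptin 2. This block joined libraries of different mice by number, so it tests no pairing of linagliptin and vehicle cells. For linagliptin against vehicle the block called 0 genes in control and 0 in DM-HFD cells. An unadjusted p under 0.05 in limma was met by 699 genes in control cells, against 455 without the block. In DM-HFD cells these counts were 127 and 129.

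FPKM without counts gives no depth, so the precision of low genes such as Nrf1 and Ppargc1b rests on the spread between libraries alone. With 3 DM-HFD libraries per exposure, the intervals for linagliptin against vehicle stayed wide.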
